A study of Mus musculus with 16 samples.

Results

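The aryl hydrocarbon receptor pathway was examined as a set of 10 genes among the 48432 gene identifiers of the deposited table. The set holds the receptor (Ahr), its dimer partner (Arnt), the receptor's repressor (Ahrr), the feedback enzyme Tiparp, and 6 genes for enzymes of foreign-compound metabolism (Cyp1a1, Cyp1a2, Cyp1b1, Aldh3a1, Ugt1a6a and Ugt1a7c). The genes were picked by symbol, with their levels in control and stimulated cells already known, so their values in that contrast are given as a description with no test. All 10 were found, none was marked by the counting software as skipped, and 9 of the 10 passed the filter on low counts (a count of about 10 or more in at least 4 libraries, scaled for depth). Cyp1a2 did not. C2C12 cells are mouse myoblasts, kept as an established line, which fuse and become contractile myotubes. Both groups were differentiated for 5 days in the same medium with horse serum and came from the same range of passages. The control group was not stimulated, and the other received electrical pulse stimulation (EPS), a train of short field pulses that makes cultured myotubes contract (pulses of 6 ms at 1 Hz, 2.75 V/mm, a duty cycle of 0.6%, polarity switched at 0.5 Hz). No genetic change was made in either group. The sources used here give neither the length of the stimulation nor whether replicates are separate cultures, and every p-value below therefore refers to the variation among the sequenced libraries alone, possibly a technical one. There were 4 control and 4 EPS libraries, each sequenced in 2 lanes.

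The aryl hydrocarbon receptor is a transcription factor of the basic helix-loop-helix PAS family that waits in the cytosol in a complex with the chaperone HSP90. Once it binds a ligand, such as dioxins, other planar aromatic compounds or products of tryptophan breakdown, it enters the nucleus, pairs with ARNT and binds DNA at xenobiotic response elements. Its best known target is Cyp1a1, whose enzyme oxidises the ligands themselves, and its targets Ahrr and Tiparp act back on the receptor. Several targets, Aldh3a1 and Nqo1 among them, can also be driven by NRF2, which controls antioxidant genes. CYP1 enzymes and their regulation are best studied in liver and lung, and ARNT is shared with the hypoxia factor HIF1A.

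Depth differed most for 1 library. Total estimated fragments were 12.6 to 20.7 M (M, 10 to the power of 6) in 7 libraries and 0.354 M in control replicate 2, where 3 fragments correspond to 8.52 CPM (counts per M fragments, TMM-scaled), against 0.138 to 0.241 CPM in the others. For some genes, values are therefore given below both with and without that library. The labelled cell type was checked against 8 myotube markers fixed with the gene lists, of which 7 were measured (Ttn was skipped by the counting software). Their summed level was 21300 to 24337 CPM in control and 12677 to 17925 CPM in EPS. All 7 had a negative fold change. EdgeR called 0 of the 7, with 6 at an unadjusted p under 0.05, 4 called by DESeq2 and 5 called lower with the replicate number as a block. Of 4 hepatocyte markers, albumin (Alb) and Serpina1a were at 0 in every library and the summed level was at most 0.401 CPM. Keratinocyte and epithelial markers (4 genes, 2 tested) summed to 10.5 to 17.0 CPM in control and 13.0 to 21.8 CPM in EPS. EdgeR called 0 of these, as did DESeq2. Krt14, a keratin gene, had a log2 fold change of 1.09 (edgeR adjusted p = 0.135, unadjusted p = 0.0115), and 1 gene of the list was called higher with the block. Markers of undifferentiated myoblasts (Pax7 and Myf5) summed to 24.3 to 61.3 CPM in control and 14.7 to 45.3 CPM in EPS, and 0 were called by edgeR, DESeq2 or with the block, with 0 at an unadjusted p under 0.05. Endothelial markers (4 genes) summed to 0 to 1.26 CPM in control and to 4.27, 14.8, 1.14 and 1.15 CPM in EPS libraries 1 to 4. Leukocyte markers (4 genes, Adgre1 at 0 throughout) summed to 2.72 to 8.52 CPM in control and to 8.70, 29.4, 2.33 and 2.54 CPM in EPS libraries 1 to 4. Both sums were thus highest in EPS replicate 2, where 1 gene made up most of each. Cd68 stood at 27.0 CPM and Pecam1 at 10.8 CPM there, and the other genes of both lists at 2.17 CPM or less. EdgeR called 0 of the 3 tested genes of the endothelial and leukocyte lists, as did DESeq2, with 1 at an unadjusted p under 0.05. The gene under 0.05 was Cd68, with a log2 fold change of 2.44 (edgeR unadjusted p = 0.0198, adjusted p = 0.172). With the block 1 gene was called lower, Itgam (log2 fold change -0.91 without the block).

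The promoters of the 6 genes that were higher in every EPS library than in any control and have a window on record are shown first, with and without a motif match, beside Cyp1a2, the close neighbour that stayed near 0. The letters GCGTG, the core of the xenobiotic response element, were searched on both strands from 250 bases before to 50 bases after each RefSeq transcription start (build GRCm38.p6). Windows were on record for 8 of the 10 genes, all except Ahr and Aldh3a1. In the lines below, read 5′ to 3′ in the direction of transcription, capitals mark each core match (CACGC where it lies on the other strand).
Cyp1a1: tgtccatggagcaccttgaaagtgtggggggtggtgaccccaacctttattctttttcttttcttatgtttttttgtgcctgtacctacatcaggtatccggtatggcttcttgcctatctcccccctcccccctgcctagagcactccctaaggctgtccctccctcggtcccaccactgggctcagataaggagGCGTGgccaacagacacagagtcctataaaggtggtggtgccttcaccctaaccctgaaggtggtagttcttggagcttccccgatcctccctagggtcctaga
Cyp1a2: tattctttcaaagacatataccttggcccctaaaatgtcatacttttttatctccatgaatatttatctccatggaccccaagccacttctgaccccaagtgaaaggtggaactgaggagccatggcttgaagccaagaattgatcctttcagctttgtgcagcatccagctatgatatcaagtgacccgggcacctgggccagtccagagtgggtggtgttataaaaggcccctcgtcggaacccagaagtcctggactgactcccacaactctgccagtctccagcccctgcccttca
Cyp1b1: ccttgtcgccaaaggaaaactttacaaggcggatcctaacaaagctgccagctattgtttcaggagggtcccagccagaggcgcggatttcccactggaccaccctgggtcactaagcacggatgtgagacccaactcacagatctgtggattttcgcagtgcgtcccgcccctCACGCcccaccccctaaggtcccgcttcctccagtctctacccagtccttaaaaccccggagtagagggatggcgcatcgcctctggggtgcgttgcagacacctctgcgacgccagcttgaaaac
Ahrr: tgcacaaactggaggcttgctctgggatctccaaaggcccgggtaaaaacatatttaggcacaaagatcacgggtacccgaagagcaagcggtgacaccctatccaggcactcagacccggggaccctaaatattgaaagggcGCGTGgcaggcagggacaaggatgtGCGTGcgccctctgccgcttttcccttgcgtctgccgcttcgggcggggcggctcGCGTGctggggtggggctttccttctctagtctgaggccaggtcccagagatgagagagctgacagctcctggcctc
Tiparp: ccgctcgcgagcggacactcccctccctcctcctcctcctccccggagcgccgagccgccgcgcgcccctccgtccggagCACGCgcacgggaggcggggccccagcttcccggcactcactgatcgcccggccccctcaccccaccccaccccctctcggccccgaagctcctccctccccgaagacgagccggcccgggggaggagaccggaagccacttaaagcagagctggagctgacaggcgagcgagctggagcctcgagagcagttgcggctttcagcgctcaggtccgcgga
Ugt1a6a: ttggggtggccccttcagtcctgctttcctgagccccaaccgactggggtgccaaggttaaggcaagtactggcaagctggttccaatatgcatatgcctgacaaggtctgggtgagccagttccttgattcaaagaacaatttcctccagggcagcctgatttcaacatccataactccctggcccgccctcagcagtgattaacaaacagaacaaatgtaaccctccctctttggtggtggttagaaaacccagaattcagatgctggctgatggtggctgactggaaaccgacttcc
Ugt1a7c: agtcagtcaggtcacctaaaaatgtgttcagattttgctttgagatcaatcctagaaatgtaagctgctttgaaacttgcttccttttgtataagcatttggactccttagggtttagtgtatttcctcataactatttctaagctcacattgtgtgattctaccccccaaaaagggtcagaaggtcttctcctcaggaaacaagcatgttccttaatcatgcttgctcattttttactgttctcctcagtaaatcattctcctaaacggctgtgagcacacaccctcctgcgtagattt
The windows lie at chr9:57697363-57697662 on the plus strand for Cyp1a1, chr9:57683606-57683905 on the minus strand for Cyp1a2, chr17:79715012-79715311 on the minus strand for Cyp1b1, chr13:74292282-74292581 on the minus strand for Ahrr, chr3:65528197-65528496 on the plus strand for Tiparp, chr1:88134559-88134858 on the plus strand for Ugt1a6a and chr1:88094751-88095050 on the plus strand for Ugt1a7c.

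Of the 8 windows, 5 held the core at least once, and of all 32851 windows of the same length 32.4% did. Ahrr had 3 matches, first bases at -107, -82 and -27 from the start, all on the strand printed above. Cyp1a1 had 1 match at -54, just upstream of a TATA box (TATAAA) at -30. Cyp1b1 had 1 match on the other strand at -76, Tiparp 1 on the other strand at -170 and Arnt 1 at -29. The windows of Cyp1a2, Ugt1a6a and Ugt1a7c held none, and the one of Cyp1a2 held a TATA box at -29. The longer form TNGCGTG, which contains the core, occurred in 1 of the 8 windows (Ahrr, at -29) and in 5.07% of all windows. The core letters of the antioxidant response element, TGACNNNGC on either strand, were found at -127 and -50 of Arnt and in none of the other 7 windows, and in 12.4% of all windows. The windows with a core match had GC contents of 54.0% (Cyp1a1), 58.3% (Cyp1b1), 59.3% (Arnt), 60.3% (Ahrr) and 73.7% (Tiparp), and those without had 40.0% to 51.7%. The median over all windows was 52.7%. A match is a run of letters and no measured binding site, and the cluster of response elements for which Cyp1a1 is known lies further upstream than these windows reach.

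**Figure D1:**
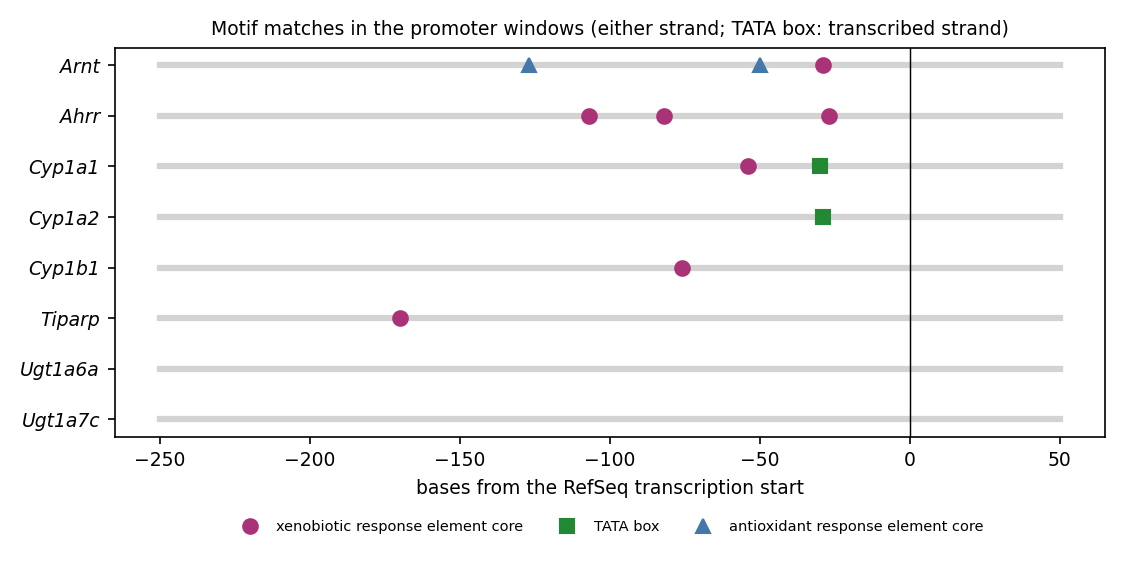
Positions of motif matches in the promoter windows of 8 genes, in bases from the RefSeq transcription start (horizontal axis, start at the vertical line), with 1 grey bar per window. Circles are core xenobiotic response elements, squares TATA boxes and triangles core antioxidant response elements; Ahrr has 3 circles, and the windows of Cyp1a2, Ugt1a6a and Ugt1a7c have none.

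The receptor itself was lower in EPS myotubes, and its partner was not separated between groups. Ahr (ENSMUSG00000019256, chromosome 12, 35497974 to 35535038, minus strand; mm10 coordinates from GENCODE M21 here and below) stood at 53.7, 48.3, 52.7 and 61.5 CPM in control libraries 1 to 4. It stood at 41.8, 46.8, 31.6 and 37.6 CPM in EPS libraries 1 to 4. In CPM every EPS library lay below every control library, with EPS replicate 2 closest to the control values. The means were 54.1 CPM ± 5.49 (SD, n = 4) and 39.5 CPM ± 6.47 (SD, n = 4), a fitted log2 fold change of -0.48 (SE 0.16). The lowest control value, that of replicate 2, rests on 17 fragments (exact 95% Poisson interval 28.1 to 77.3 CPM, counting error only), and without it the control mean was 56.0 CPM ± 4.81 (SD, n = 3). In bulk RNA, fewer cells that express a gene and less RNA per cell cannot be told apart.

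Arnt (ENSMUSG00000015522, chromosome 3, 95434388 to 95497240, plus strand) encodes the partner without which the receptor does not bind its response elements. It stood at 54.6, 62.5, 47.4 and 52.7 CPM in control and at 71.0, 84.8, 49.7 and 40.3 CPM in EPS libraries 1 to 4. The groups overlapped, since EPS replicates 1 and 2 lay above all control libraries and EPS replicate 4 below all of them. The fitted log2 fold change was 0.21 (SE 0.23), and it ranged from 0.01 to 0.35 over the settings tried. Levels of the 10 genes were compared with each other only per transcript length, as deposited FPKM (fragments per kilobase and M fragments). On that scale Ahr was at 10.3 ± 1.42 and Arnt at 15.7 ± 3.66 in control, and at 7.66 ± 1.34 and 17.0 ± 6.51 in EPS (SD, n = 4 each). The groups overlapped for Ahr in FPKM, with EPS replicate 2 (9.41) above the shallow control replicate 2 (8.4). Ahr FPKM amounted to 69.8%, 39.9%, 83.2% and 84.7% of Arnt FPKM in control libraries 1 to 4 and to 45.6%, 36.4%, 44.0% and 66.9% in EPS libraries 1 to 4. Ahr was thus the scarcer transcript of the pair in all 8 libraries. The ranges of this ratio overlapped through control replicate 2, and the other 3 control libraries lay above all EPS libraries.

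The 2 genes that act back on the receptor were both higher in EPS, by very different factors. Ahrr (ENSMUSG00000021575, chromosome 13, 74211118 to 74292331, minus strand) encodes a repressor that competes with the receptor for ARNT. It had 11, 0, 3 and 6 fragments in control libraries 1 to 4 and 196, 64, 128 and 157 in EPS libraries 1 to 4. As levels these were 0.596, 0, 0.236 and 0.287 CPM in control and 10.1, 5.13, 6.62 and 7.25 CPM in EPS. Every EPS library lay above every control library, although the shallow control replicate 2 could not have shown a level as low as that of the other controls. Its 0 fragments allow up to 10.5 CPM (exact 95% Poisson interval), above all EPS values, so that library cannot separate the groups. The fitted log2 fold change was 4.25 (SE 0.43), and 4.23 without that library. On the scale log2(FPKM + 1) the difference was 1.15, where the added constant outweighs the low control values. In FPKM, Ahrr amounted to 1.67%, 0.445% and 0.445% of Ahr in control libraries 1, 3 and 4 and to 23.4%, 11.0%, 21.4% and 18.6% in EPS libraries 1 to 4. Its transcript thus stayed below that of the receptor in every library.

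Tiparp (ENSMUSG00000034640, chromosome 3, 65528410 to 65555518, plus strand) encodes a mono-ADP-ribosyltransferase that modifies the receptor and lowers its activity. Its level was 114, 179, 109 and 99.7 CPM in control and 271, 336, 186 and 199 CPM in EPS libraries 1 to 4. The groups did not overlap, by a narrow margin between EPS replicate 3 and control replicate 2. The latter rests on 63 fragments, with an exact 95% Poisson interval of 138 to 229 CPM that contains the values of EPS replicates 3 and 4. The fitted log2 fold change was 1.03 (SE 0.25), and 1.20 without control replicate 2. Without that library the control mean was 108 CPM ± 7.23 (SD, n = 3), against 248 CPM ± 69.6 (SD, n = 4) in EPS. A pseudogene on the opposite strand (4931440P22Rik) overlaps Tiparp, with 30 fragments in all control and 74 in all EPS libraries together. That is far fewer than the 2086 to 2102 fragments of Tiparp in control replicates 1 and 4 alone.

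**Figure D2:**
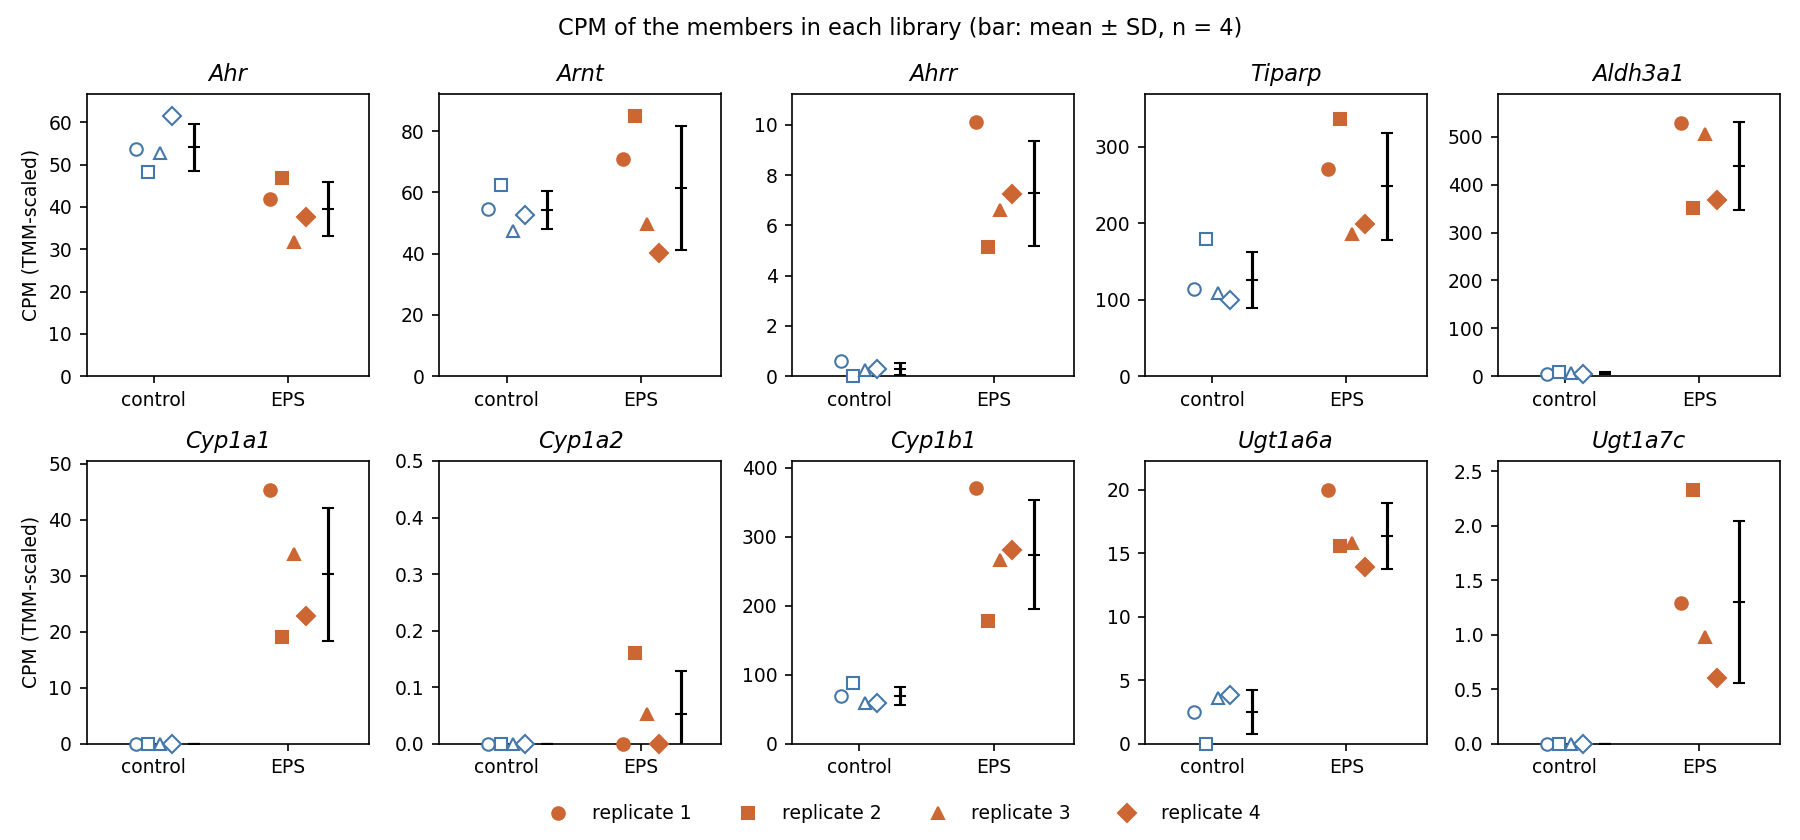
CPM (TMM-scaled, vertical axes from 0, a scale of its own for each gene) of the 10 genes in each library, control open and EPS filled, with the marker shape giving the replicate number and the bar beside each group its mean ± SD (n = 4). Ahr is lower in all 4 EPS libraries, Arnt overlaps, Cyp1a2 lies at or near 0, and the other 7 genes lie higher in every EPS library than in any control library.

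The 3 CYP1 genes, which encode cytochrome P450 enzymes that oxidise aromatic compounds, showed 3 different patterns. Cyp1a1 (ENSMUSG00000032315, chromosome 9, 57687928 to 57703824, plus strand) had 0 fragments in each of the 4 control libraries and 882, 238, 655 and 493 in EPS libraries 1 to 4. These are 45.4, 19.1, 33.9 and 22.8 CPM, a mean of 30.3 CPM ± 11.9 (SD, n = 4). A count of 0 over the control group allows up to 3 fragments or 0.0572 CPM (counting error only), which puts EPS at least 529.5-fold higher. Because this bound scales with control depth, it was 342.5 without control replicate 1 and 313.7 without control replicate 4. Its neighbour Cyp1a2 (ENSMUSG00000032310, chromosome 9, 57676937 to 57683703, minus strand), the main hepatic form of the pair, is transcribed in the opposite direction. The RefSeq starts of the pair, used for the windows above, lie 13958 bases apart. Cyp1a2 had 0 fragments in every control library and 0, 2, 1 and 0 in EPS libraries 1 to 4, at or under the limit that a count of 0 allows in each group, so no fold was computed.

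Cyp1b1 (ENSMUSG00000024087, chromosome 17, 79701537 to 79715061, minus strand), the family member known from tissues outside the liver, was already present without stimulation. It stood at 69.0, 88.1, 59.7 and 59.0 CPM in control and at 371, 178, 266 and 281 CPM in EPS libraries 1 to 4. The lowest EPS library, replicate 2, was still about as far above the highest control as that control was above 0. The fitted log2 fold change was 2.04 (SE 0.24), with 1.85 to 2.20 when any 1 library was left out. Per length, Cyp1b1 was the leading CYP1 transcript in all 8 libraries, at 15.1 FPKM ± 1.18 (SD, n = 4) in control and 63.2 FPKM ± 17.2 (SD, n = 4) in EPS. Cyp1a1 FPKM was 17.5%, 16.6%, 19.8% and 11.4% of Cyp1b1 FPKM in EPS libraries 1 to 4. The gene with the largest relative difference thus stayed the less abundant of the 2 after stimulation.

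Aldh3a1 (ENSMUSG00000019102, chromosome 11, 61207537 to 61218421, plus strand) encodes an aldehyde dehydrogenase that oxidises aromatic and lipid-derived aldehydes. It had 68, 3, 88 and 101 fragments in control and 10282, 4372, 9789 and 7996 in EPS libraries 1 to 4, or 3.68, 8.52, 6.93 and 4.83 CPM against 529, 351, 507 and 369 CPM. The 2 groups were apart by more than an order of magnitude in every pair of libraries. The fitted log2 fold change was 6.39 (SE 0.30), and 6.42 without control replicate 2, where the value rests on 3 fragments. Aldh3a1 became the most abundant of the 10 transcripts per length, at 224 FPKM ± 53.5 (SD, n = 4) in EPS. That mean lay above 98.5% of the 13987 tested genes, against 30.0% in control.

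The UGT1 genes encode enzymes that attach glucuronic acid to phenols and other compounds for excretion, and each combines its own first exon with exons shared by the whole locus. Ugt1a6a (ENSMUSG00000054545, chromosome 1, 88134809 to 88218997, plus strand) stood at 2.49, 0, 3.62 and 3.82 CPM in control and at 20.0, 15.6, 15.8 and 13.9 CPM in EPS libraries 1 to 4. All EPS libraries lay above all controls, and the fitted log2 fold change was 2.35 (SE 0.29; 2.30 without control replicate 2). Ugt1a7c (ENSMUSG00000090124, chromosome 1, 88095062 to 88220002, plus strand) was assigned 0 fragments in every control library and 1.29, 2.33, 0.983 and 0.600 CPM in EPS. Taking that assignment as given, EPS was at least 22.71-fold higher against 3 fragments over the control group (14.67 without control replicate 1 and 13.38 without control replicate 4). In control replicate 2, the 0 fragments of Ugt1a7c allow up to 10.5 CPM (exact 95% Poisson interval), above all its EPS values. Of the exonic bases of Ugt1a6a 50.3%, and of Ugt1a7c 54.6%, also belong to other Ugt1a genes, so how fragments were divided among them is uncertain. The bound for Ugt1a7c does not cover this uncertainty. The sum over the 9 Ugt1a genes of the table does not depend on that division. It was 2.82, 0, 3.62 and 3.82 CPM in control and 22.0, 18.8, 18.9 and 14.7 CPM in EPS libraries 1 to 4. The ratio of means was 7.25, with the 0 of the shallow control replicate 2 counted as a level, which lowers the control mean. For Ugt1a6a alone, such a ratio was 6.58 and the fitted fold 5.1.

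**Figure D3:**
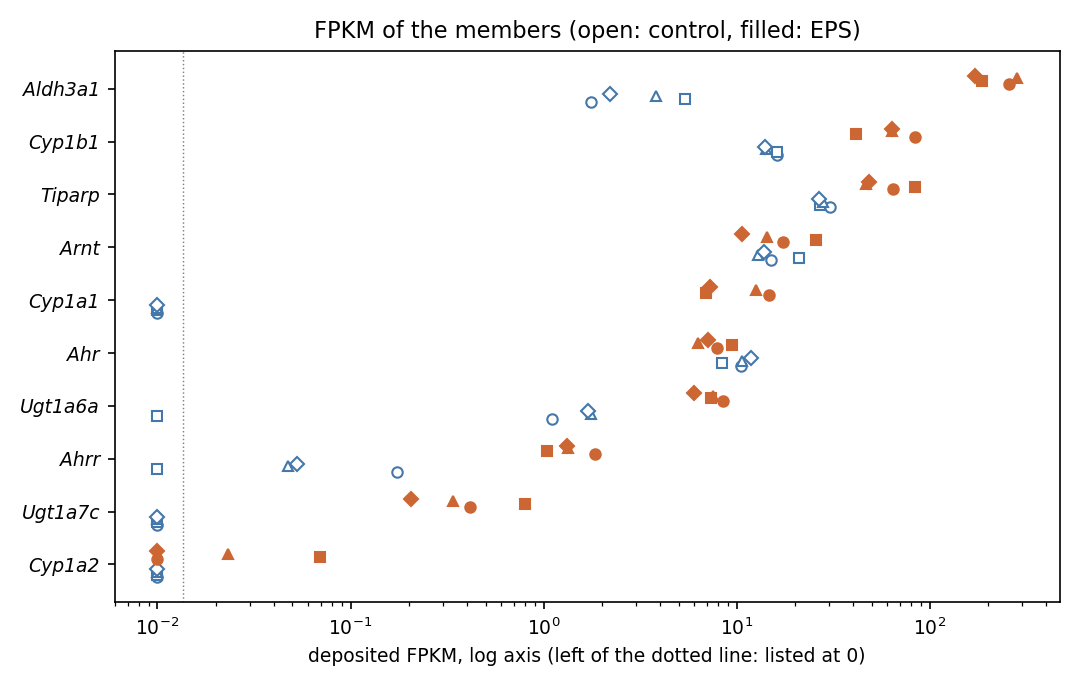
Deposited FPKM of the 10 genes on a log axis, 1 point per library (open, control; filled, EPS; shapes as replicates 1 to 4 in the order circle, square, triangle, diamond), sorted by the EPS mean, with values listed at 0 left of the dotted line. In EPS, Aldh3a1 at 224 FPKM on average stands above Cyp1b1 and Tiparp at 63.2 and 60.9, and Cyp1a1 at 10.3 stands close to Ahr at 7.66.

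Across the 9 genes that passed the filter, edgeR's quasi-likelihood test called 6 higher and 0 lower in EPS at an adjusted p of 0.05, with 7 and 1 at an unadjusted p under 0.05. DESeq2 called 7 and 0. With the replicate number as a block, edgeR called 7 higher, Tiparp added, and 1 lower, Ahr. Among all 13987 genes tested, 2.30% were called higher and 0.758% lower (3.06% in either direction), 7.31% and 4.78% with the block, and 4.62% and 2.14% by DESeq2. In CPM, the groups did not overlap in 7 genes that were higher and 1 that was lower in EPS, against 9.32% and 4.83% of all tested genes. Nothing is read from these counts, since the genes were chosen on this contrast and low genes passed the filter through the group where they are high.

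Among EPS libraries the genes fell into different orders. Ahrr, Cyp1a1, Cyp1b1 and Aldh3a1 were all highest in EPS replicate 1 and lowest in EPS replicate 2, with a ratio of highest to lowest CPM of 1.97, 2.38, 2.08 and 1.51. Ahr, Arnt, Tiparp and Ugt1a7c were highest in EPS replicate 2, with ratios of 1.48, 2.10, 1.81 and 3.88, the last on 13.4 to 29.4 fragments. Ugt1a6a varied least, by 1.44. In the deviation from the mean log2 CPM of the EPS libraries, replicate 2 was at -0.58 for Cyp1a1, -0.57 for Cyp1b1, -0.45 for Ahrr and -0.30 for Aldh3a1, but at 0.48 for Tiparp and 0.52 for Arnt. The summed endothelial and leukocyte markers, mostly Pecam1 and Cd68, were highest in the same library, where the first 4 genes were lowest. Libraries of both groups also differed in how level varied with transcript length. Spearman's rho between deviation in log2 CPM and exonic length was taken across 13947 genes (a description, since genes are not independent). It was 0.160 and 0.227 in EPS replicates 1 and 2 and -0.332 and -0.292 in EPS replicates 3 and 4. In control replicates 1 to 4 it was -0.088, 0.119, -0.242 and -0.222. Arnt (8007 exonic bases), Ahr (6163), Tiparp (4358) and Ugt1a7c (4219) were higher in both EPS replicates 1 and 2 than in 3 and 4. Ahrr, the longest with 9441, Cyp1b1 (5840), Cyp1a1 (2787) and Aldh3a1 (1942) were lowest in replicate 2. Ugt1a6a (4312) was highest in replicate 1 and lowest in replicate 4. The part of length or of these markers in the order of libraries was not tested.

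**Figure D4:**
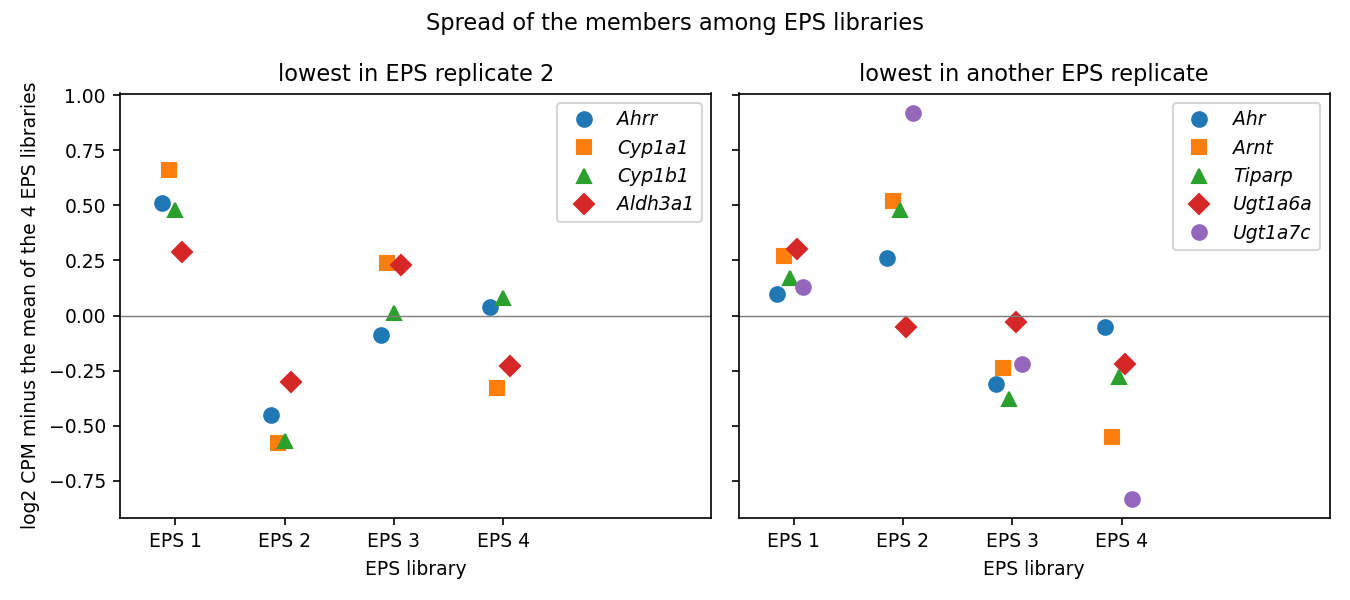
Log2 CPM of 9 genes in each EPS library minus the mean of the 4 EPS libraries (vertical axis), for genes lowest in EPS replicate 2 (left panel) and for the others (right panel). In replicate 2, Cyp1a1 lies at -0.58 and Cyp1b1 at -0.57, and Arnt at 0.52 and Tiparp at 0.48.

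Differences within replicate numbers, which pair the libraries by the check given under processing, showed the same directions in nearly all genes. EPS minus control in log2 CPM was -0.36, -0.04, -0.74 and -0.71 for Ahr in numbers 1 to 4, and 1.25, 0.91, 0.76 and 1.00 for Tiparp. For Arnt it was 0.38, 0.44, 0.07 and -0.38, the only 1 of the 9 genes with both signs. Cyp1b1 differed by 2.42, 1.01, 2.15 and 2.25, and Aldh3a1 by 7.12, 5.34, 6.17 and 6.22, with the smallest difference of each in number 2.

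Other genes of the pathway were taken from 5 lists, 72 genes in all, of which 46 passed the filter on low counts. EdgeR called 6 higher and 0 lower, or 13.0% of those tested against 2.30% of all genes, with 18 at an unadjusted p under 0.05 and 10 and 0 called by DESeq2. With the block the counts were 13 and 2. They were 3 and 0 without control replicate 1 or 3, and 5 and 1 without control replicate 2. The median log2 fold change was 0.27, and 0.01 over all genes. The lists were written with earlier results of these data known, so the counts are not independent evidence.

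Of 7 genes for the receptor's cytosolic complex and its turnover, 1 was called, Hsp90aa1, the inducible HSP90 form, which rose in EPS (median of the list 0.26). It stood at 319, 656, 290 and 310 CPM in control and at 1911, 3604, 798 and 790 CPM in EPS libraries 1 to 4. Its log2 fold change was 2.20 (SE 0.51, edgeR adjusted p = 0.0454), the highest control value being that of the shallow replicate 2. The call was lost when any 1 control library or EPS replicate 1 or 2 was left out (adjusted p from 0.0504 to 0.167) and with the scaling of DESeq2 in edgeR (0.0512) and limma on FPKM (0.0824 and 0.0987). With the block, its partner form Hsp90ab1 and the co-chaperone p23 (Ptges3) were called as well (block adjusted p = 0.0164 and 0.00566). DESeq2 called 2 genes of the list, Hsp90aa1 and Ptges3. The ubiquitin ligase genes Stub1 and Cul4b had log2 fold changes of -0.04 and -0.15, neither past the threshold in either fit.

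Of 18 PAS relatives and coregulators, 15 were tested and edgeR called 0, with 4 at an unadjusted p under 0.05, 0 called by DESeq2 and 1 with the block. The list median was 0.28. Smarca4, a chromatin remodeller and the gene of the list with the highest CPM, differed by 0.03 on the log2 scale (SE 0.17). The gene called with the block was the coactivator Ncoa3 (log2 fold change 0.80, block adjusted p = 0.0214).

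Of 20 other reported target genes, 14 were tested and 4 rose, while 10 missed the threshold. With the block 6 were higher and 1 lower, DESeq2 called 6 higher and 0 lower, and the median was 0.50. Those that rose without the block were the glutathione transferases Gsta1 and Gsta2, the quinone reductase Nqo1 and the growth factor Ereg. Gsta2 had 0.108, 0, 0.0787 and 0.0956 CPM in control and 10.3, 11.1, 14.3 and 11.6 CPM in EPS libraries 1 to 4. Its EPS libraries spread little beside that gap, with EPS replicate 3 highest and replicate 1 lowest. Gsta1 stood at 24.2, 13.8, 21.5 and 23.5 CPM in EPS libraries 1 to 4. It was thus highest in replicate 1 and lowest in replicate 2, as Cyp1a1 was. The sequences of Gsta1 and Gsta2 are nearly the same, and how fragments were divided between them is uncertain. Their log2 fold changes were 6.47 for Gsta1 (SE 0.44, edgeR adjusted p = 4.98e-05) and 6.84 for Gsta2 (SE 0.36, edgeR adjusted p = 5.14e-06), with at most 8 and 2 fragments in any control library. Nqo1 stood at 3.74, 5.68, 5.98 and 4.01 CPM in control and at 173, 158, 216 and 191 CPM in EPS libraries 1 to 4, a log2 fold change of 5.33 (SE 0.23, edgeR adjusted p = 1.65e-06). Like Gsta2 it was highest in EPS replicate 3, and like Gsta1 it was lowest in EPS replicate 2. Ereg had 4.88, 5.68, 7.40 and 9.85 CPM in control and 25.2, 40.7, 15.8 and 19.3 CPM in EPS libraries 1 to 4, without overlap, a log2 fold change of 1.79 (SE 0.35, edgeR adjusted p = 0.0244). Its call was lost without control replicate 1 or 3 or EPS replicate 1 (adjusted p from 0.0739 to 0.108) and with limma on FPKM (0.0582 and 0.0792). Genes that did not pass in edgeR without the block included xanthine dehydrogenase (Xdh, 1.69), the amino acid transporter Slc7a5 (1.02) and Nfe2l2, which encodes NRF2 (0.50). On the negative side stood the signalling inhibitor Socs2 (-0.66) and the Notch target Hes1 (-0.28). Xdh and Slc7a5 were also called higher by DESeq2. With the block, both were called higher and Socs2 lower (block adjusted p = 0.000469, 0.0173 and 0.0183).

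Of 13 relatives of the detoxification enzymes and their redox partners, 6 were tested and 1 rose (3 higher and 1 lower with the block, 2 higher by DESeq2; median 0.01). Cyb5a, which encodes cytochrome b5, an electron donor to cytochromes P450, stood at 10.0, 2.84, 18.3 and 18.4 CPM in control and at 33.3, 39.8, 59.9 and 47.8 CPM in EPS libraries 1 to 4. The groups did not overlap, and the log2 fold change was 1.63 (SE 0.31, edgeR adjusted p = 0.0218). The call was lost without control replicate 1, 3 or 4 (adjusted p from 0.0619 to 0.0945) and with limma on FPKM (0.0542 and 0.0760). Por, the P450 reductase that supplies the CYP1 enzymes, had a log2 fold change of 0.72 (SE 0.18, edgeR adjusted p = 0.0582, 0.0155 with the block). The relatives of Aldh3a1, Aldh3a2, Aldh3b1 and Aldh3b2, had log2 fold changes of 0.47, -0.52 and -0.44, none past the threshold without the block. Aldh3a2 was higher in every EPS library than in any control and was called higher with the block (block adjusted p = 0.0279). Aldh3b1 was called lower with it (block adjusted p = 0.0432), and Aldh3b2 was not called (0.739).

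Of 14 genes for tryptophan and kynurenine metabolism, which makes and removes ligands of the receptor, only 4 were expressed enough to test. EdgeR called 0, with 0 at an unadjusted p under 0.05, 0 by DESeq2 and 0 with the block, and the median was 0.01. The most abundant was Got2, a mitochondrial aminotransferase that can also make kynurenic acid (log2 fold change -0.16, SE 0.23). Tdo2 and Kynu were at 0 fragments in every library, and Ido1 had at most 4 fragments in any.

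**Figure D5:**
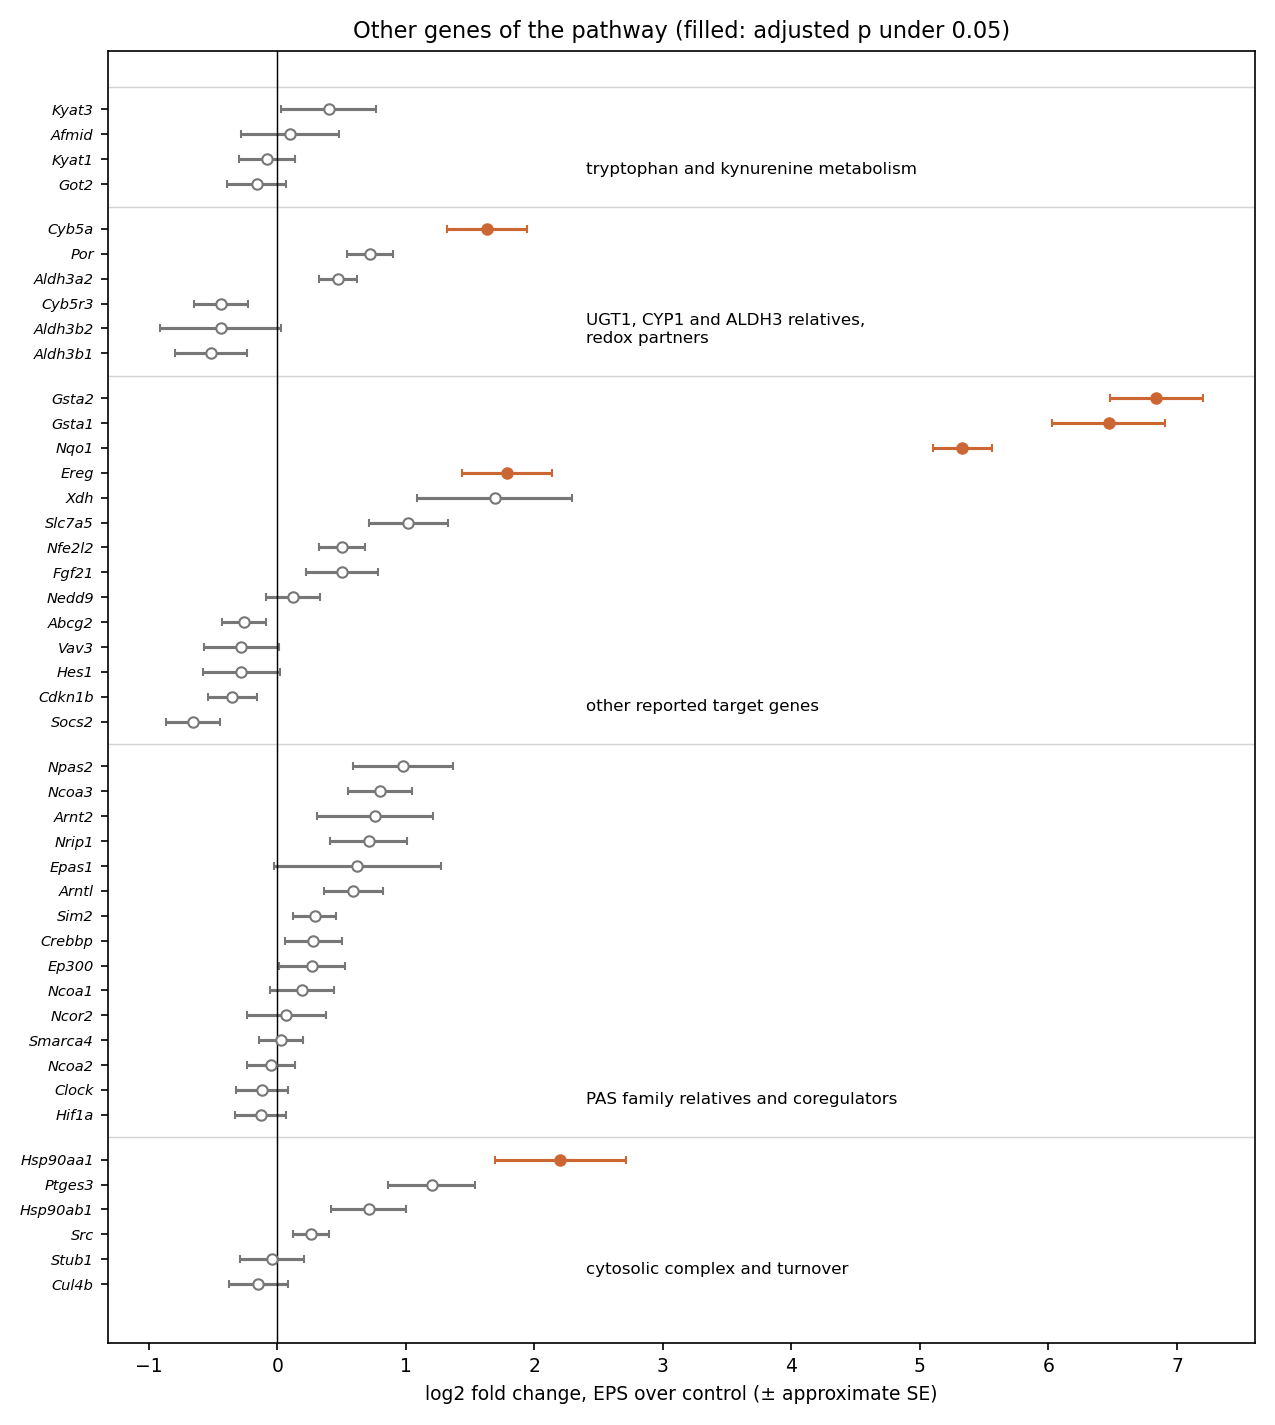
Log2 fold change of EPS over control (horizontal axis, bars ± approximate SE) for 45 of the 46 tested genes of the 5 pathway lists, with genes past an adjusted p of 0.05 filled. The 6 filled genes are Hsp90aa1, Gsta1, Gsta2, Nqo1, Ereg and Cyb5a, all to the right of 0.

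Genes with the most similar profile were sought for 4 of the 10 genes over the 7 deep libraries, among 11651 genes. The measure was the root mean square difference between profiles of log2 CPM, each centred on its mean, so that a small value means similar differences of similar size. Nearest to Cyp1a1 were Aldh3a1 (0.76), Gsta1 (1.01), Gsta2 (1.10), the cystine transporter gene Slc7a11 (1.22) and Nqo1 (1.30). Nearest to Aldh3a1 were Gsta2 (0.49), Nqo1 (0.57), Gsta4 (0.65), Gsta1 (0.69) and Slc7a11 (0.72). With 0 fragments in the control libraries, the control level of Cyp1a1 on this scale is set by the prior count of 2, and so in part are its distances. Tiparp lay close to Naif1 (0.08), Sirt1 (0.08), Rit1 (0.09), Kansl2 (0.10) and Ppard (0.10), none of them named above as a target of the receptor. Nearest to Ahr were the myosin gene Myh3 (0.07), Adamts14 (0.09), the M-band gene Myom3 (0.09), Mipol1 (0.10) and Srl (0.11). These distances describe 7 libraries in 2 groups and carry no test.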

How the data were processed

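Per the submitters' processing notes, STAR 2.5.1, Cufflinks and Cuffdiff 2.2.1 were used with the mouse build mm10. No source used here gives the strand setting or annotation release. Per the labels' protocols, the total RNA kit keeps strand. The deposited table gives, per the file headers, estimated counts (fragments per gene and library, not scaled), of which 93.3% of those above 0 were whole, and FPKM after Cuffdiff's scaling between libraries by the authors. The 46 genes marked as skipped in a group were left out.

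Identifiers were matched without version to GENCODE M21 of the same build (48051 of 48432 had a symbol). Estimated counts were rounded, filtered with filterByExpr (minimum count 10, minimum total 15) and scaled by TMM. The test was the quasi-likelihood one of edgeR 4.0.16 in R 4.3.3, with Benjamini-Hochberg adjustment over 13987 genes and a threshold of 0.05. Standard errors were derived from the F statistic and are approximate, and log2 CPM used a prior count of 2. Alternatives were DESeq2 1.42.0, its size factors, no filter, limma 3.58.1 on log2(FPKM + 0.1) and log2(FPKM + 1), the replicate number as a block, and each library left out. Groups and replicate numbers came from sample titles. The numbers were taken to pair libraries because deviations from the group mean in log2 CPM correlated between same-numbered libraries at 0.300, 0.214, 0.286 and 0.297. What a number marks is not given. In both groups, rho with exonic length was higher in numbers 1 and 2 than in 3 and 4. The part of that trend in these correlations was not tested.

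The genes and lists were chosen with earlier results of these data known. Named were all 10 genes, up to 4 called genes per list or the one with the highest mean CPM, and the 5 nearest profiles of 4 genes among genes with a mean of at least 1 CPM. In the lists, 1 gene is counted but not reported by itself here. Other genes of the lists named beyond this rule were picked after their values were seen.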

Additional observations from a re-analysis of the deposited data

Results flagged for a closer look

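The level of Hsp90aa1 in control replicate 2, 656 CPM, lay far from those of the other 3 control libraries, with a gap of 0.919 of the group's range, above Dixon's 95% critical value for 4 values. That library holds 0.354 M fragments. Such a gap is found by chance in about 1 of 20 groups, and 33 groups of 4 values were checked.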

How the results depend on the processing

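Counts over all genes moved most. Against 322 higher and 106 lower genes, DESeq2 called 633 and 294, limma 94 and 29 on log2(FPKM + 0.1) and 130 and 48 on log2(FPKM + 1), the replicate block 1023 and 668, and 162 were lower with no filter. With 1 library left out, 92 to 427 were higher and 22 to 167 lower. Among the other pathway genes (6 higher, 0 lower), 10 were higher by DESeq2, 3 by limma with either pseudocount, and 13 higher and 2 lower with the block. With 1 library left out, 3 to 8 were higher and 0 to 1 lower. Of the 10 described genes, the 7 with a fitted fold change kept its sign in all 15 settings. For Arnt, whose groups overlapped, the value fell to 0.01 without EPS replicate 2, so its sign carries little. The size moved beyond the spread of libraries for Ahrr (3.21 and 1.15) and Aldh3a1 (5.76) on FPKM scales. The bound for Cyp1a1 ranged from 313.7 to 591.0 and that for Ugt1a7c from 13.38 to 26.34, with no value from DESeq2, limma, the block or the unfiltered fit. The range for Ugt1a7c takes the division of fragments among Ugt1a genes as given. In the shallow control replicate 2, a level under 8.52 CPM, that of 3 fragments, could not be told from 0. The exact 95% Poisson interval for 0 fragments, given above for single genes, is another rule and reaches 10.5 CPM.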
